A study of Homo sapiens with 4 samples.

Results

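The giant cytoskeletal linkers are very large proteins that tie actin, microtubules, intermediate filaments, the plasma membrane and the nuclear envelope to one another. 9 genes were chosen by name for this family, which were AHNAK, AHNAK2, DST, MACF1, PLEC, SYNE1, SYNE2, UTRN and FLNA. Each had 1 entry in every table, and all 9 passed the filter on low values, out of 29655 distinct gene names and 11877 protein-coding genes tested. RNA-seq was performed on UMSCC74B, an established line of head and neck squamous cell carcinoma (HNSCC). Control cells, whose genotype the labels give as WT, received a control shRNA plasmid, and PRMT5 KD cells received an shRNA plasmid against PRMT5, the main enzyme for symmetric dimethylation of arginine. Both groups were grown without antibiotic for 72 h after transfection and had 2 libraries each. The study asked how PRMT5 affects the RNAs bound by FXR1, an RNA-binding protein of the fragile X family that PRMT5 methylates.

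The linkers differ in what they join. AHNAK and AHNAK2 are scaffold proteins built mostly of repeats, and AHNAK binds annexin A2 and S100A10 beneath the plasma membrane. DST (dystonin), MACF1 and PLEC (plectin) belong to the plakins, and DST and MACF1 are spectraplakins that bind both actin and microtubules. SYNE1 and SYNE2 encode the giant nesprins of the outer nuclear membrane, UTRN encodes utrophin, the relative of dystrophin, and FLNA encodes filamin A, which crosslinks actin filaments. Their transcripts are among the longest in human cells, so they carry many reads and are exposed to any length-dependent difference between libraries.

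The named libraries held 52185289 and 65964558 estimated counts in control against 64233361 and 55328869 under the PRMT5 KD label. Ribosomal RNA took 15.3% and 14.2% of the control counts and 26.2% and 18.0% of the PRMT5 KD counts. PRMT5 itself stood at 94.3 and 84.2 CPM (counts scaled to library size with TMM factors) in control and at 132 and 150 in the libraries labelled PRMT5 KD. The PRMT5 transcript was therefore higher where the label says knockdown, with a log2 fold change of 0.66 ± 0.12 (SE; FDR = 0.00542, edgeR quasi-likelihood test with Benjamini-Hochberg adjustment), so the groups are called by their labels throughout. These tables measure RNA only. The study reported that PRMT5 was silenced at the protein level by immunoblot, and its methods name qRT-PCR for mRNA levels after transduction. Neither was analysed here. Without control replicate 2 this difference was 0.58 and was not called (FDR = 0.0674). FXR1 stood at 189 and 187 CPM in control and 231 and 223 CPM under the PRMT5 KD label, which did not pass the test (log2 fold change 0.27 ± 0.11 (SE), FDR = 0.0722).

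The HNSCC label was checked against squamous epithelial markers, of which 4 of 11 could be tested. CDH1, the epithelial cadherin, had counts of 9 and 4 in control against 2 and 4 under the PRMT5 KD label, and the basal keratin gene KRT5 had 0, 0, 0 and 4. The summed level of the 11 markers was 218 and 225 CPM in control and 151 and 194 CPM under the PRMT5 KD label. PERP and KRT18 made up most of that sum. Of the 4 tested markers, 3 were called lower, with log2 fold changes of −1.35 (TP63), −0.85 (KRT8) and −0.57 (PERP). TP63 passed the filter through its control libraries alone. KRT18, at 0.11, was not called. Some markers of low count that were not tested went the other way. KRT17 had 5 and 6 counts in control and then 53 and 71, SFN had 3 and 5 and then 28 and 86, and KRT14 had 0 and 0 and then 11 and 22, none of which passed the filter. KRT5, KRT14, KRT6A and CDH1 were under 1 CPM in every library, and these were 4 of the 11 markers. TP63 stood at 5.51 and 6.60 CPM in control and at 1.74 and 3.01 CPM under the PRMT5 KD label. Of 13 markers of other cell types, 9 could be tested, 7 were lower and 1 was higher. The higher gene was CD68, listed here as a blood marker (94.6 and 113 CPM in control, 153 and 170 CPM under the PRMT5 KD label). The 6 fibroblast markers summed to 629 and 727 CPM in control and to 87.6 and 97.2 CPM under the PRMT5 KD label. The other blood markers, PTPRC and CD3E, stayed at 5 counts or fewer in every library, so the level of CD68 is not read as a sign of blood cells. The part of these differences and of the ribosomal RNA share in the linker results was not tested, and in bulk RNA fewer cells of a type and less RNA per cell cannot be told apart. Nothing in the labels says that the libraries came from separate cultures, so the p-values measure the spread between these libraries, which may be technical.

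Short sites are shown first because binding by FXR1 is the reason that AHNAK, AHNAK2 and DST were set apart from the other linkers. The study's list of FXR1 eCLIP peaks (crosslinked RNA fragments pulled down with FXR1), held here only in part, names a peak on each of the 9 linkers. The presence of a listed peak alone therefore does not separate those 3 genes from the rest. The share of all genes tested with a listed peak was not counted, and the number and strength of peaks were not compared. By fold change and p-value, the paper places AHNAK and AHNAK2 among its top targets. For each gene shown, the site is the first listed interval of 12 to 30 bases in an untranslated region. Sequences were read from GRCh38 on the strand of the gene, 5′ to 3′, and capitals mark runs of at least 2 guanines.
AHNAK, 3′ UTR, chr11:62516612-62516625, minus strand: ccttgcctGGcccg
AHNAK2, 3′ UTR, chr14:104937932-104937954, minus strand: ttcacagaacGGagaacagagca
DST, 3′ UTR, chr6:56458743-56458772, minus strand: atttctgcactgtaacgtgccGGGcacaca
MACF1, 3′ UTR, chr1:39486317-39486334, plus strand: ttagctaaagagaGGGaa
SYNE2, 5′ UTR, chr14:63909105-63909128, plus strand: cttcaactgagatGGacatgatat
UTRN, 5′ UTR, chr6:144285684-144285701, plus strand: ttttaaatacatcgcacc
FLNA, 3′ UTR, chrX:154348588-154348600, minus strand: GGGGGtcctgtac
All 7 sites lay within annotated exons of their genes. Guanine made up 28.6%, 26.1% and 23.3% of the AHNAK, AHNAK2 and DST sites, against 46.2% for FLNA, 33.3% for MACF1, 20.8% for SYNE2 and 5.56% for UTRN. In the longest transcripts it made up 27.5% (AHNAK), 30.4% (AHNAK2), 22.7% (DST), 31.1% (FLNA), 24.8% (MACF1), 23.2% (SYNE2) and 23.3% (UTRN). Each site is 1 short interval taken by its place in the list. It does not give the guanine content of FXR1 binding across a gene, and the paper places most FXR1 peaks in coding sequence. PLEC was not searched for a site, so its absence says nothing about its peaks. SYNE1 had no interval of 12 to 30 bases in the part of the list held here. The longest run of guanines was 2 bases in AHNAK and AHNAK2, 3 in DST and MACF1, and 5 in FLNA.

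For AHNAK the study also listed G-rich stretches from chr11:62525835-62528898, an interval of 3064 bases within the gene. They are shown because guanine runs are what a G-quadruplex, a fold of stacked guanines, is made of, and because their strand can be read from the genome. AHNAK is transcribed from the minus strand, and each stretch is given below as listed and then as it occurs on the mRNA strand, with runs of guanine (as listed) or cytosine (mRNA strand) in capitals.
AHNAK stretch 1, as listed: GGcatGGagatcttGGGGG
AHNAK stretch 1, mRNA strand, chr11:62526288-62526306: CCCCCaagatctCCatgCC
AHNAK stretch 7, as listed: GGGGGcatttacatcaactttGGGG
AHNAK stretch 7, mRNA strand, chr11:62526920-62526944: CCCCaaagttgatgtaaatgCCCCC
AHNAK stretch 8, as listed: GGGGctcttcaagtgtagatcgaGGtctGG
AHNAK stretch 8, mRNA strand, chr11:62527223-62527252: CCagaCCtcgatctacacttgaagagCCCC
Of 8 different stretches, 0 occurred as listed in an annotated AHNAK coding transcript and 8 occurred as their reverse complement. 6 of the 8 lay within the stated interval on the plus strand and 0 on the minus strand. Stretch 1 occurred 18 times on the strand opposite to the AHNAK coding transcript, 8 of them within the interval, in a gene built largely of repeats. On the mRNA strand the interval held 27.8% guanine and 21.3% cytosine. This strand result covers the AHNAK list alone. For AHNAK2 the study marked guanine runs on a sequence in the mRNA direction, which was not analysed here.

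The linkers fell together, with 1 exception. Under the PRMT5 KD label 8 of the 9 were called lower and 0 higher, where 24.3% of all genes tested were called lower and 21.2% higher. Calls needed an FDR below 0.05 and a log2 fold change of 0.5 or more in size. In either direction 45.6% of all genes tested were called. The median log2 fold change of the 9 was −1.15, against −0.01 for all genes tested. In 8 of the 9 both PRMT5 KD libraries lay below both control libraries, which was so for 40.6% of all genes tested. The summed level of the 9 was 15599 and 15811 CPM in control and 6429 and 6500 CPM under the PRMT5 KD label, and their share of the protein-coding counts was 1.47% in each control library and 0.666% and 0.707% under the PRMT5 KD label. The number of reads behind each value was large, from 2785 counts for SYNE2 to 314801 for FLNA in a library.

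**Figure D1:**
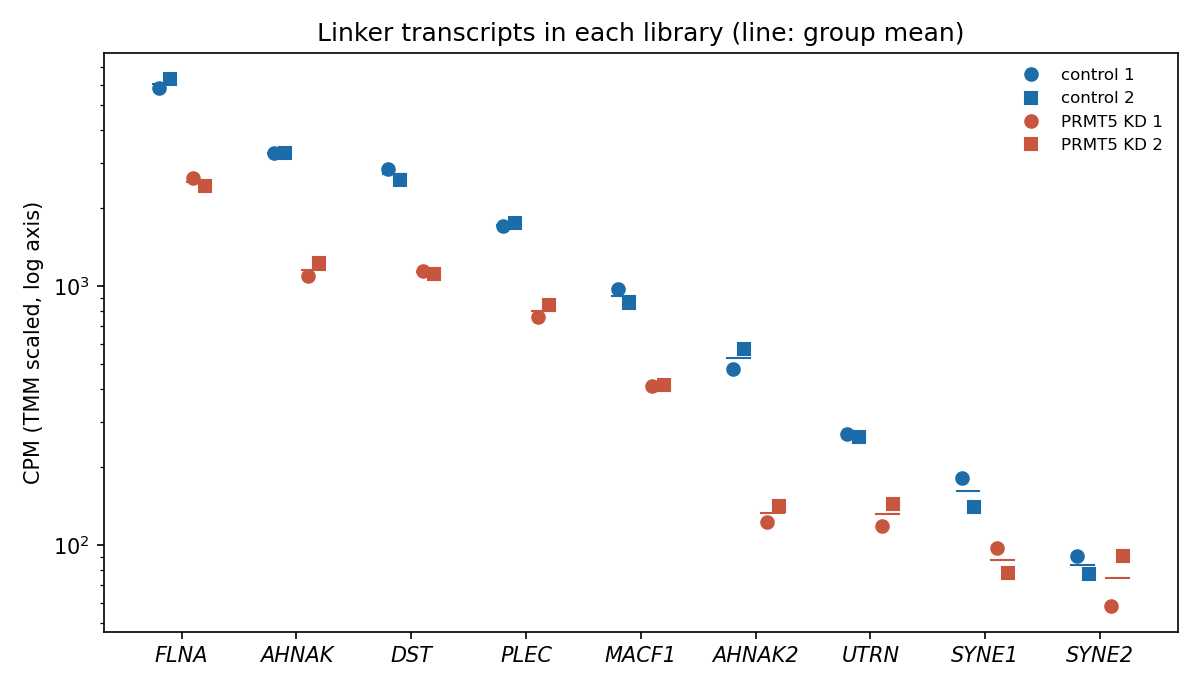
CPM of each linker transcript (log axis, scaled by TMM factors) in the 2 control and the 2 PRMT5 KD libraries, with a short line at each group mean. The control points lie above the PRMT5 KD points for all linkers except SYNE2, whose points overlap.

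AHNAK2 showed the largest change of the family. The gene lies on chromosome 14 from 104937244 to 104978374 (GRCh38, minus strand), and its longest transcript has 18335 nt. Its level was 480 and 574 CPM in control and 123 and 142 CPM under the PRMT5 KD label. The groups were far apart, with means of 527 ± 66.0 and 133 ± 13.5 CPM (SD, n = 2 each). This was a 3.97-fold lower level and a log2 fold change of −1.99 ± 0.15 (SE; edgeR FDR = 0.000346). PLD4, on the opposite strand, overlaps 518 nt of its exons and had at most 2 counts in a library.

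AHNAK, the better known of the AHNAK proteins, lies on chromosome 11 from 62433542 to 62556235 on the minus strand, and its longest transcript has 18761 nt. It stood at 3257 and 3273 CPM in control and at 1095 and 1226 CPM under the PRMT5 KD label. The control libraries were almost equal, and both PRMT5 KD libraries were well below them. The level fell 2.81-fold, from 3265 ± 11.2 to 1160 ± 92.7 CPM (SD, n = 2 each), with a log2 fold change of −1.49 ± 0.15 (SE; edgeR FDR = 0.00065). The log2 ratio of AHNAK2 to AHNAK per exon length within a library was −2.71 and −2.46 in control against −3.10 and −3.05 under the PRMT5 KD label. The ratio was lower by 0.49 on average and the groups did not overlap, with p = 0.333 in an exact two-sided permutation test, the smallest p that 2 against 2 libraries allow.

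DST encodes dystonin, whose isoforms anchor keratin filaments at hemidesmosomes or link microtubules and actin. It lies on chromosome 6 from 56457987 to 56954830 on the minus strand, and its longest transcript has 24709 nt. The level was 2827 and 2575 CPM in control and 1147 and 1119 CPM under the PRMT5 KD label, so that the lower control library was still more than double the higher PRMT5 KD library. The log2 fold change was −1.25 ± 0.15 (SE; edgeR FDR = 0.00102).

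MACF1, the other spectraplakin, lies on chromosome 1 from 39081316 to 39487177 on the plus strand. Its level was 973 and 865 CPM in control and 413 and 415 CPM under the PRMT5 KD label, a log2 fold change of −1.15 ± 0.14 (SE; edgeR FDR = 0.0011). The profiles of DST and MACF1 over the 4 libraries were the closest of any pair of linkers, at a Euclidean distance of 0.110 between centred log2 CPM values. Their log2 ratio per exon length was 2.09 and 2.12 in control against 2.02 and 1.98 under the PRMT5 KD label. This difference of −0.10 (−0.19 with a pseudocount of 1) had the smallest p that the design allows (p = 0.333, exact two-sided permutation test).

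PLEC, on chromosome 8 from 143915153 to 143976734, encodes plectin, which binds intermediate filaments to actin, to microtubules and to hemidesmosomes. It stood at 1705 and 1754 CPM in control and at 759 and 847 CPM under the PRMT5 KD label, and the groups did not overlap (log2 fold change −1.11 ± 0.14 (SE), edgeR FDR = 0.00143). FLNA, on chromosome X from 154348524 to 154374634, was the most abundant linker, with 5816 and 6292 CPM in control and 2617 and 2437 CPM under the PRMT5 KD label. Its log2 fold change was −1.26 ± 0.16 (SE; edgeR FDR = 0.00119). The log2 ratio of PLEC to FLNA was −2.42 and −2.49 in control against −2.43 and −2.17 under the PRMT5 KD label. These ratios overlapped between the groups (p = 0.667, exact two-sided permutation test).

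UTRN, on chromosome 6 from 144285335 to 144853034, encodes utrophin, which connects actin to the dystroglycan complex of the membrane. Its level was 268 and 261 CPM in control and 119 and 145 CPM under the PRMT5 KD label. This 2.01-fold lower level was a log2 fold change of −1.004 ± 0.13 (SE; edgeR FDR = 0.00156).

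The giant nesprins had the smallest changes of the family, and no test of their difference from the other linkers was made. SYNE1, on chromosome 6 from 152121687 to 152637801, stood at 182 and 140 CPM in control and at 97.6 and 78.3 CPM under the PRMT5 KD label (log2 fold change −0.88 ± 0.17 (SE), edgeR FDR = 0.00713). This call was lost without control replicate 1, where the log2 fold change was −0.67 (FDR = 0.0540). SYNE2, on chromosome 14 from 63761899 to 64226433, stood at 90.8 and 77.7 CPM in control and at 58.5 and 90.6 CPM under the PRMT5 KD label. PRMT5 KD replicate 2 lay within the control range and PRMT5 KD replicate 1 below it. The log2 fold change was −0.18 ± 0.22 (SE; edgeR FDR = 0.535), its sign turned to 0.0094 with library scaling by total counts alone, and it was 0.14 without PRMT5 KD replicate 1 and −0.52 (FDR = 0.0136) without PRMT5 KD replicate 2. The log2 ratio of SYNE1 to SYNE2 was 0.45 and 0.30 in control against 0.18 and −0.76 under the PRMT5 KD label (p = 0.333, exact two-sided permutation test), and most of that difference came from PRMT5 KD replicate 2.

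Levels of different genes were compared per exon length, as RPKM (the CPM value per kilobase of annotated exon). In control, FLNA was highest with 557 ± 30.9 (SD, n = 2, as for all values here) and AHNAK followed with 168 ± 0.573. PLEC had 102 ± 2.04, DST 56.1 ± 3.70 and AHNAK2 28.0 ± 3.52. UTRN had 17.6 ± 0.327, MACF1 13.0 ± 1.08, SYNE1 3.40 ± 0.624 and SYNE2 2.60 ± 0.286. No neighbours in this order overlapped in control, and the nearest pair was SYNE1 and SYNE2. Under the PRMT5 KD label the levels were 233 ± 11.7 for FLNA, 59.6 ± 4.76 for AHNAK, 47.2 ± 3.67 for PLEC and 23.5 ± 0.407 for DST. AHNAK2 had moved from above UTRN to below it, with 7.07 ± 0.716 against 8.79 ± 1.21, and MACF1 had 5.86 ± 0.0195. SYNE2 with 2.30 ± 0.700 and SYNE1 with 1.85 ± 0.287 overlapped there. The places of MACF1 and DST depended on the length used. The exons of MACF1 span 70573 nt in all and its longest transcript 24340 nt, and those of DST 48142 nt and 24709 nt. Per longest transcript, DST had 114 and 104 RPKM in the control libraries and PLEC 112 and 115, which overlapped. Per longest transcript, MACF1 had 37.8 RPKM in control, above AHNAK2 with 28.7 and UTRN with 20.5.

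The median change of other very long transcripts was smaller than the change of 8 of the 9 linkers. Leaving the linkers out, 569 tested genes had a longest annotated transcript of at least 10000 nt, and FLNA, with 8541 nt, is below that limit. The 569 were chosen by length alone and include FXR1 targets that the paper names, such as HUWE1 and DYNC1H1. Of these 569, 256 were called lower (45.0%) and 42 higher, and the median log2 fold change was −0.40 with quartiles of −0.94 and 0.06. The median fell with length across all genes tested, from 0.23 below 2000 nt to 0.09 from 2000 to 4000 nt, −0.05 from 4000 to 6000 nt, −0.17 from 6000 to 8000 nt and −0.30 from 8000 to 10000 nt. The share of very long transcripts called lower was therefore almost double that of all genes tested, and the count of linkers called lower is to be read against 45.0% as well as against 24.3%. Among the very long transcripts of RPKM above the upper quartile of all genes tested, the median was −0.47 and 44 of 91 were called lower.

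**Figure D2:**
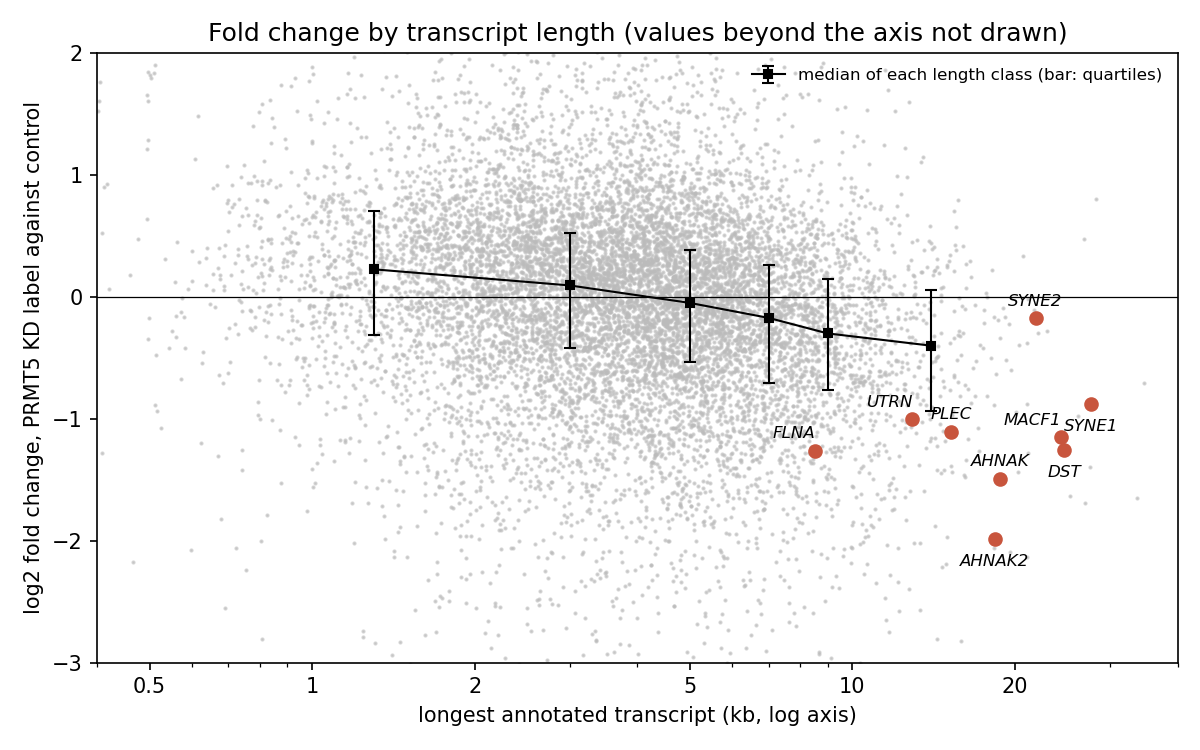
Log2 fold change (libraries labelled PRMT5 KD against control) against the length of the longest annotated transcript (kb, log axis), with 1 grey point for each gene tested and the linkers in red. Black squares are medians of length classes with bars for the quartiles, and they fall from 0.23 in the shortest class to −0.40 in the longest, above every linker except SYNE2.

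AHNAK, AHNAK2 and DST all lay in the lower part of this distribution, but not at its end. Only 5.80% of the 569 very long transcripts had a lower log2 fold change than AHNAK2. The share was 11.8% for AHNAK and 16.7% for DST. FLNA also had 16.7%, MACF1 19.0%, PLEC 19.3%, UTRN 22.8%, SYNE1 26.7% and SYNE2 63.8%. The median log2 fold change was −1.49 over AHNAK, AHNAK2 and DST and −1.06 over the other 6 linkers, and no test was made of that difference. DST, at −1.25 ± 0.15 (SE), lay between FLNA (−1.26 ± 0.16) and MACF1 (−1.15 ± 0.14), with gaps smaller than these SEs. FLNA is below the length limit. Among the linkers at or above that limit, AHNAK2, AHNAK and DST had the lowest values. Whether binding by FXR1 has a part in this order was not tested.

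The level of each linker was also set against the median RPKM of the 569 very long transcripts within the same library, a ratio that does not depend on library scaling. On the log2 scale AHNAK stood 4.97 and 5.06 above that median in control and 3.71 and 3.98 above it under the PRMT5 KD label, a difference of −1.17. AHNAK2 stood 2.26 and 2.60 above it in control and 0.62 and 0.93 above it under the PRMT5 KD label, a difference of −1.66. DST stood 3.46 and 3.41 above it in control and 2.48 and 2.55 above it under the PRMT5 KD label, a difference of −0.92. None of these groups overlapped, and each had p = 0.333 in an exact two-sided permutation test, the smallest the design allows. FLNA (−0.93), MACF1 (−0.82), PLEC (−0.78), UTRN (−0.68) and SYNE1 (−0.54) moved in the same direction relative to the very long transcripts without overlap. Such a separation was common in CPM, where 40.6% of all genes tested were lower without overlap, and no such share is given for these ratios. SYNE2 differed by 0.12, with groups that overlapped (p = 1, exact two-sided permutation test).

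The 10 very long transcripts with the highest RPKM give examples. Their longest transcripts ran from 10002 nt (HELZ2) to 20066 nt (DYNC1H1). Their mean control RPKM ran from 53.8 (HELZ2) to 167 (LRP1). These levels were near those of AHNAK, PLEC and DST, below FLNA and above the other linkers. 6 of the 10 were called lower (edgeR, as above), where 45.0% of the 569 were. LRP1, an endocytic receptor of the LDL receptor family, fell by 2.19 on the log2 scale (FDR = 0.000422), which was more than AHNAK2, and the cholesterol exporter gene ABCA1 fell by 1.87 (FDR = 0.000319). NOTCH2 fell by 1.21 and IGF2R by 1.15, close to DST and MACF1. The dynein heavy chain gene DYNC1H1 fell by 0.94 and the microtubule-associated MAP1B by 0.56. MAP1A, UBR4, SOD2 and HELZ2 were not called, at −0.37, −0.47, 0.41 and 0.54. The paper names MAP1B, DYNC1H1 and UBR4 as FXR1 targets, so these examples are not a set free of FXR1 binding.

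Correcting for exon length and GC content made the changes of 8 of the 9 linkers smaller, and that of SYNE2 turned from −0.18 to 0.29. After it, 6 of the 9 were called lower, where 23.4% of all genes tested were, and the median of the very long transcripts was −0.09. AHNAK2 stood at −1.47 (edgeR FDR = 0.000678), AHNAK at −1.08 (FDR = 0.00194), FLNA at −0.84 (FDR = 0.00434), DST at −0.74 (FDR = 0.00562), UTRN at −0.71 (FDR = 0.00619) and MACF1 at −0.57 (FDR = 0.0127). PLEC, at −0.45 (FDR = 0.0421), no longer reached the fold threshold. SYNE1, at −0.34 (FDR = 0.104), and SYNE2, at 0.29 (FDR = 0.337), did not pass the test. Relative to the equally corrected very long transcripts, 7.73% lay below AHNAK2, 13.0% below AHNAK, 17.2% below FLNA and 20.2% below DST.

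**Figure D3:**
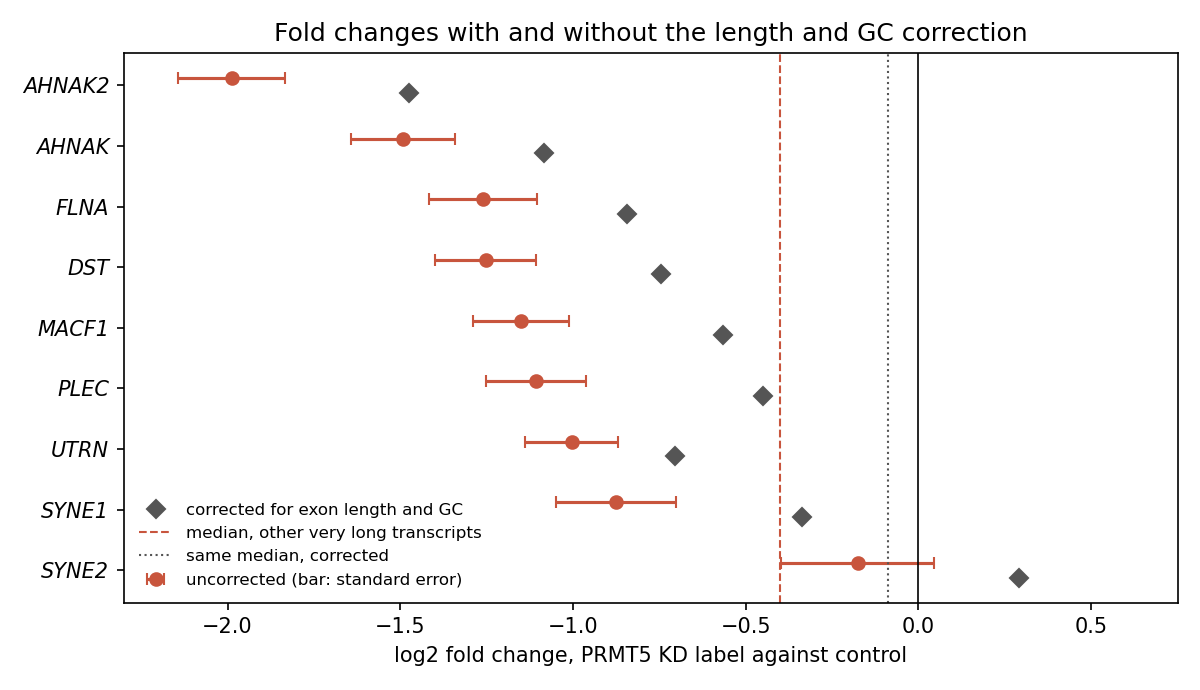
Log2 fold change of each linker (libraries labelled PRMT5 KD against control), uncorrected (red points with standard errors) and corrected for exon length and GC content (grey diamonds). The dashed and dotted lines are the medians of the other very long transcripts, −0.40 uncorrected and −0.09 corrected, and every linker except SYNE2 lies below the line of its kind.

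Genes whose profiles over the 4 libraries were nearest to AHNAK, AHNAK2 and DST were sought among 10060 well expressed genes by the Euclidean distance of centred log2 CPM values. For AHNAK they were AGPAT4 (distance 0.0335), an acyltransferase gene of phospholipid synthesis, and TMEM135 (0.0361). For AHNAK2 they were FBN1 (0.0644), which encodes the matrix protein fibrillin, and GLT8D2 (0.0652). For DST they were FBXL2 (0.0340) and USP54 (0.0511), genes of ubiquitin handling. Their longest transcripts ranged from 1927 nt (GLT8D2) to 11609 nt (FBN1).

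Partner genes were counted in lists written from general knowledge. Of 15 other linker and adaptor genes tested, 9 were called lower and 1 higher, and the median log2 fold change was −0.73. The plakin periplakin (PPL) fell by 4.50 and CLMN, which encodes calmin, by 3.10. Both passed the filter through their control libraries alone, so their falls are not independent of it. Under the PRMT5 KD label PPL had an RPKM of 0.36 and 0.29 and CLMN of 0.27 and 0.38. Dystrophin (DMD) fell by 1.15 and the adhesion protein vinculin (VCL) by 0.85. The spectrins SPTAN1 and SPTBN1 both fell by 0.73 and talin (TLN1) by 0.74. Filamin C (FLNC) was higher by 0.52, in contrast to FLNA. The median longest transcript of these 15 was 9635 nt. Among other genes of 8000 to 10000 nt, 36.7% were called lower and the median log2 fold change was −0.30. After the length and GC correction 4 of the 15 were lower and 2 higher, where 23.4% of all genes tested were lower. EPPK1, EVPL and SYNE4 did not pass the filter.

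Among 11 genes tested for partners of AHNAK and annexins, 7 were lower and 1 higher (median −0.69). Those lower included the membrane repair genes MYOF (−1.26) and DYSF (−1.17), the calcium channel subunit gene CACNB1 (−1.12) and the periaxin gene PRX (−1.11). The annexin genes did not move together, since ANXA6 was lower by 0.86 and ANXA2 by 0.56 on the log2 scale while ANXA1 was higher by 0.99. S100A10, the partner of annexin A2 in the complex that binds AHNAK, was at 0.40 (edgeR FDR = 0.0219), below the fold threshold.

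The dystroglycan complex that utrophin joins was lower in 7 of 9 genes tested and higher in 1, with a median of −1.02, and the same counts held after the length and GC correction. SSPN, which encodes sarcospan, fell by 3.32 and the syntrophin SNTB1 by 2.68, DAG1, dystroglycan itself, by 1.14, and the sarcoglycan SGCB by 1.13. SSPN and SNTB1 passed the filter through their control libraries alone. Under the PRMT5 KD label SSPN had an RPKM of 0.17 and 0.19 and SNTB1 of 0.43 and 0.26. Their falls are therefore not independent of the filter. The dystrobrevin DTNA was higher by 0.54. Partners of plectin and dystonin at the hemidesmosome were lower in 4 of 7 and higher in 1 (median −0.59). The integrin genes ITGB4 and ITGA6, whose products form the hemidesmosome receptor, fell by 3.10 and 0.97, and the laminin chain LAMA3 fell by 2.19. ITGB4 also passed the filter through control alone, with an RPKM of 0.11 and 0.08 under the PRMT5 KD label. KRT5, KRT14 and COL17A1 did not pass the filter.

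Genes of the nuclear envelope that work with the nesprins were divided, with 4 of 11 lower and 4 higher (median −0.30). SUN2 fell by 1.57 and SUN1 by 0.56, the inner membrane proteins that hold nesprins, while the B-type lamins LMNB1 and LMNB2 were higher by 1.79 and 0.92 and TMPO by 1.63. Microtubule end partners of the spectraplakins mostly showed small differences, with CLASP1 lower by 0.74, MAPRE1 higher by 0.72 and 8 of 10 not called (median −0.07). Of 7 filamin A partners tested, 3 were lower and 0 higher (median −0.38), which were FBLIM1 (−2.26), FILIP1 (−1.55) and the integrin gene ITGB1 (−1.14). These lists can be set beside the 24.3% of all genes called lower and the median of −0.01, and no test of a list was made. With total counts alone in place of TMM, the counts lower and higher were 8 and 2 for the other linkers, 6 and 4 for the partners of AHNAK and annexins, 3 and 2 for the hemidesmosome and 2 and 4 for the nuclear envelope.

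**Figure D4:**
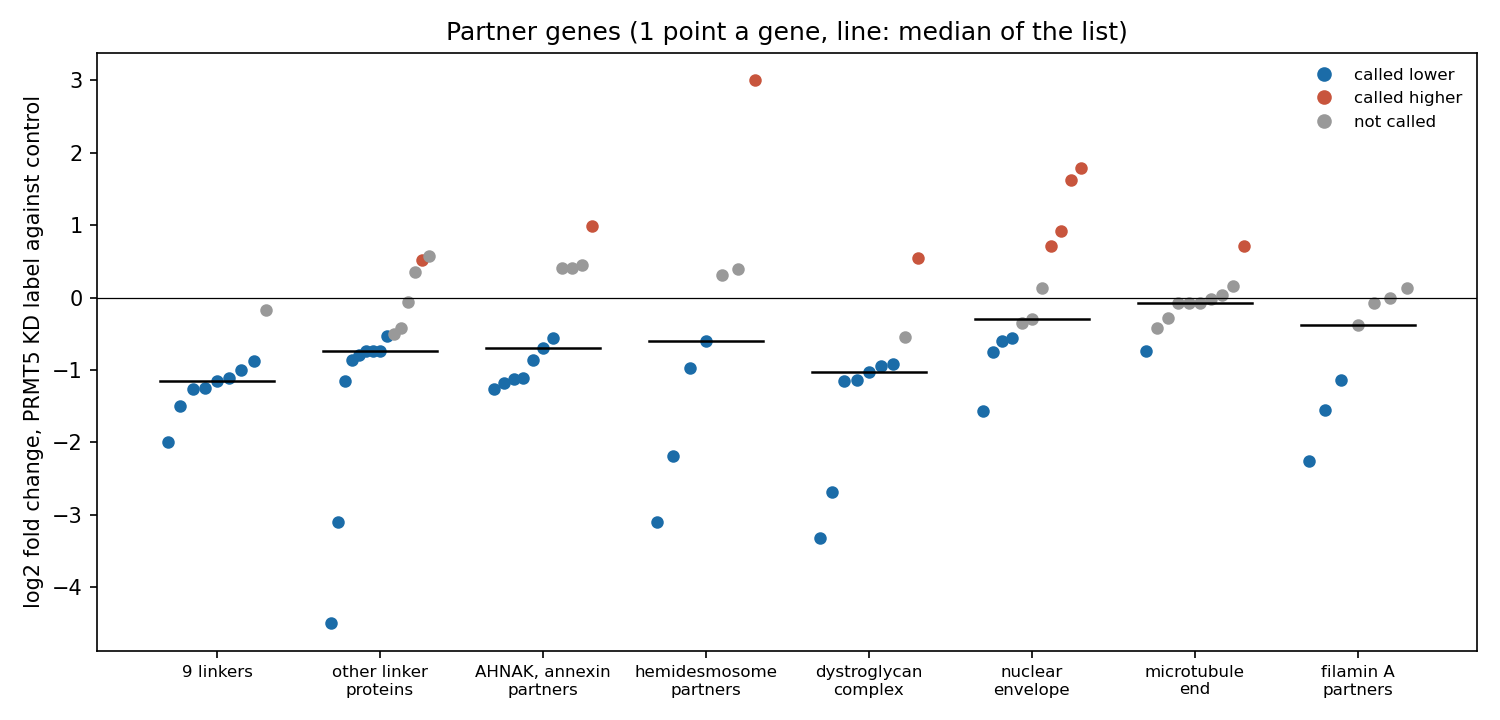
Log2 fold change (libraries labelled PRMT5 KD against control) of each gene tested in the linker family and in 7 lists of partner genes, with a line at the median of each list. The linkers and the dystroglycan complex have the lowest medians, −1.15 and −1.02, and the microtubule end list lies near 0 at −0.07.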

How the data were processed

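RNA-seq of 4 UMSCC74B libraries (2 control, 2 PRMT5 KD) was analysed. The authors deposited estimated counts, 1 table per library, not normalized; 86.0% to 86.8% of the values are whole to within 1e-09. The processing notes name FastQC, Trim Galore, STAR, Salmon, DESeq2 and GRCh38 without roles, while the paper's methods describe another counter, so the counter is uncertain. The study's methods describe lentiviral delivery of the shRNAs, and the labels a transfection. Of 29744 entries, 28 had names turned into dates and were left out (0.150% to 0.161% of counts). Names were matched to GENCODE release 44 (23403 of 29655), and 18821 were protein-coding. Counts with the same name were summed and rounded.

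Tested genes had to reach an RPKM of 0.5 in all libraries of a group. A gene could therefore pass through the group where it was higher. The test was the robust quasi-likelihood test of edgeR 4.0.16 (TMM factors, R 4.3.3) and p-values were adjusted by Benjamini-Hochberg across every gene tested. SEs were computed from each fold change and its F statistic. Within-library ratios used RPKM with a pseudocount of 0.01. The length and GC correction used splines with 4 degrees of freedom as offsets. Steps were tested on simulated data. The members and lists were chosen with earlier results of these data known. The genes named are the 9 linkers, PRMT5, FXR1, list genes, the 10 very long transcripts of highest RPKM, and the 2 genes nearest in profile to AHNAK, AHNAK2 and DST. DESeq2 1.42.0, other scalings, filters and thresholds, and each library left out were tried. Values of some list genes are not reported here, although the list counts include them.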

Additional observations from a re-analysis of the deposited data

How the results depend on the processing

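AHNAK, AHNAK2, DST, MACF1, UTRN and FLNA kept their direction and call in 15 of 15 alternatives, PLEC in 13, SYNE1 in 12, and SYNE2, not called in the chosen fit, was called in 1. Main counts were 5411 genes called, 2892 of them lower (53.4%). With total counts alone in place of TMM, which moved the median of all genes by 0.18, 5696 were called and 38.5% of them were lower, SYNE2 went to 0.0094 and the very long median to −0.23. With the length and GC correction, PLEC went to −0.45, SYNE1 to −0.34, SYNE2 to 0.29, the very long median to −0.087 and the very long transcripts called lower to 154; genes called fell from 10 to 6 among other linker proteins, from 2 to 1 among microtubule end partners and from 9 to 4 of the 12 FXR1 targets that the study chose, which all had log2 fold changes below 0 before the correction and are not independent evidence of a direction. With that correction and a replicate block the values were −0.46, −0.33, 0.25, −0.093 and 155. With a fold threshold of 1 on the log2 scale, 2553 genes were called, 1525 lower and 1028 higher, and 7 linkers. Leaving out 1 library at a time gave 3122 to 5695 genes called (1763 to 2945 lower, 1359 to 2758 higher, lowest each time without control replicate 2), 7 to 9 linkers lower, −1.05 to −0.67 for SYNE1, −0.52 to 0.14 for SYNE2 and 0.57 to 0.78 for PRMT5. The difference in the SYNE2 ratio to the very long median ranged from −0.24 without PRMT5 KD replicate 2 to 0.49 without replicate 1, and that of DST to MACF1 to −0.19 with a pseudocount of 1. The cause of these shifts was not tested.

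The labels give both groups the numbers 1 and 2, but same-numbered libraries did not deviate together (correlation −0.1003), so they share only a number; a replicate block gave 5173 genes called, 2775 lower, and 8 linkers lower. Pairing the numbers crosswise, chosen after seeing the data, gave 5473. Also after seeing the data, a limit on coding transcripts gave a very long median of −0.45; limits of 8000 and 12000 nt gave −0.35 and −0.49. With 2 libraries a group, no within-library ratio could go below p = 0.333 in the exact permutation test.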
